A study of Mus musculus with 241 samples.

Results

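The genes described here were chosen for higher RNA in Bcl11b- DN2a cells than in the stages sorted on either side, and P2rx1 had the largest margin in that choice. DN2a cells are early T-cell precursors of the thymus that have gained surface CD25 and still carry CD44 and Kit. Genes were selected on their bulk FPKM: a gene was chosen by the rule where Bcl11b- DN2a exceeded both Flt3- early T-cell progenitors (ETPs) and Bcl11b+ DN2a by at least 0.5 on the log2(FPKM + 1) scale, in each of 2 library series. FPKM is reads per kilobase of gene model, scaled to the library. One series was made with NEBNext and the other with SMART-Seq v4. The selection left out Gfi1b, Cd160, Mcpt8, Fcer1g, Tyrobp and the Hbb globin genes. Of 24506 genes in the bulk table, 24 met the margins (0.0979%), of which Gfi1b and 4 Hbb genes were dropped, and 19 remained. All 19 had more than 1 FPKM in at least 2 of 12 libraries, as 12112 genes did. These values chose the genes, so they are given as a description and without a test.

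All cells came from the thymus of C57BL/6 mice, were untreated, and were sorted as Lin- 7AAD- CD44+ Kit+. The 12 bulk libraries came from Bcl11b-yfp/yfp mice, in which the Bcl11b gene carries a yellow fluorescent reporter. They comprised Flt3+ ETP (CD25- Flt3+, 2 libraries), Flt3- ETP (CD25- Flt3-, 2 libraries), total ETP (CD25-, 2 libraries), Bcl11b- DN2a (CD25+ YFP-, 3 libraries) and Bcl11b+ DN2a (CD25+ YFP+, 3 libraries). Wild-type (WT) mice gave single cells of the undivided CD44+ Kit+ gate, which were measured with 10x droplets (2 libraries) and on the C1 chip. The labels give no ages and tie no library to an animal. The p-values below therefore speak of spread among the 10x libraries, part of which may be technical. Where the library is a term of the fit, that is how differences between groups of cells varied between the 2 libraries. In bulk RNA, fewer cells of a type and less RNA per cell cannot be told apart.

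ETPs are the earliest T-cell precursors that can be isolated from the thymus. They lose Flt3, gain CD25 on entering the DN2a stage under Notch signals, and commit to the T lineage when the transcription factor gene Bcl11b is switched on. Bcl11b- DN2a cells therefore stand just before commitment, and progenitor and myeloid regulators are still active in them.

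The members fell into 12 protein-coding genes, the noncoding gene Gm38426, and 6 genes of small RNAs (Snord37, Snord68, Snord89, Mir7045, Mir7029 and Mir1839). By known role they include a receptor channel for extracellular ATP (P2rx1), an integrin chain (Itga2b) and the enzyme that makes thromboxane A2 (Tbxas1). Secreted or structural proteins are encoded by Col9a3, a chain of type IX collagen, by Tnni1, the slow skeletal troponin I, and by Olfm5, an olfactomedin family protein. Gpr183 encodes a receptor for oxysterols and Gpr141 an orphan receptor. Clnk encodes an adaptor of immunoreceptor signalling, Fhit a hydrolase of diadenosine nucleotides, and Adam11 a metalloprotease-like membrane protein without protease activity. The depth behind the members differed widely. The 13 longer genes had 70 to 5359 reads in each Bcl11b- DN2a library, whereas the small RNA genes had at most 31 reads in any library and 4 of them at most 20.

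The NEBNext series used by the rule stood apart by transcripts of committed T cells. Its Flt3- ETP library held Cd3g at 39.9, Cd3e at 11.97, Thy1 at 33.9 and Bcl11b at 4.54 FPKM, against 0.71, 0.089, 1.5 and 0.028 FPKM in the SMART-Seq library of that population. Its Flt3+ ETP library held Cd3g at 52.5 and Bcl11b at 5.76 FPKM, against 5.42 and 0.061 FPKM. Its Bcl11b- DN2a library held Cd3g at 19.8 FPKM, against 0.801 and 4.77 FPKM in replicates 2 and 3. Over all 12 genes of a committed T list the summed levels overlapped between series, at 108.6 to 297.7 FPKM in ETPs, 202.9 to 314.3 FPKM in Bcl11b- DN2a and 525.2 to 648.6 FPKM in Bcl11b+ DN2a. The part of these transcripts in the choice of members was not tested. Without this series the rule found 58 genes in place of 19, and neither the third bulk series nor the 10x data use its libraries.

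Promoters are shown for P2rx1, Itga2b, Olfm5 and Tbxas1, 4 members called in the single-cell data below. They are the 250 bases before the RefSeq start, on the gene's strand, from the GRCm38.p6 table, whose starts coincide with those of the deposited gene models. Capitals mark 4 short motifs searched on both strands: GATAA, the core bound by GATA factors; TGTGGT, bound by Runx factors; GAGGAA, bound by PU.1 and other Ets factors; and CAGCTG, an E-box. No 2 motifs overlapped in these sequences. P2rx1 lies at chr11:72998895-72999144 (plus strand), Itga2b at chr11:102469884-102470133 (minus strand), Olfm5 at chr7:104164817-104165066 (minus strand) and Tbxas1 at chr6:38918736-38918985 (plus strand).
P2rx1: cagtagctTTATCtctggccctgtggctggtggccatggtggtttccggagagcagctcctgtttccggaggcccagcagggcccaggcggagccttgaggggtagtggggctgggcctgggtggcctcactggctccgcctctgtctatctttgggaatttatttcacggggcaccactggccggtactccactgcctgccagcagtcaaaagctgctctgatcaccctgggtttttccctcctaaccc
Itga2b: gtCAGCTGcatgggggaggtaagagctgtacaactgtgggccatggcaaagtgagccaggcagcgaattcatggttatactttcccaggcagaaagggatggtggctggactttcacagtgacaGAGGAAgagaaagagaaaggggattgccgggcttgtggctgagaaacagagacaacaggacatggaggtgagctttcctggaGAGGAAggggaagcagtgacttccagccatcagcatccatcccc
Olfm5: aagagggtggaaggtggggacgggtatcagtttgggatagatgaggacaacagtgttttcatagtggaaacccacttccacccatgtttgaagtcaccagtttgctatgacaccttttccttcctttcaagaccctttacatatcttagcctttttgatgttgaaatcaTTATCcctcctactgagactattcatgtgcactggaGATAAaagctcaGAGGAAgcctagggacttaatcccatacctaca
Tbxas1: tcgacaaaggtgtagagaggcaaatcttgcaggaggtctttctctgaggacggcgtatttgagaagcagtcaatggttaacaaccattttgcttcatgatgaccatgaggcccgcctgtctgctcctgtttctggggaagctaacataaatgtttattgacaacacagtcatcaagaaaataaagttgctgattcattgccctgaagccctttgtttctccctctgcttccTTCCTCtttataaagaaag
Of the 19 members, 11 were in the promoter table, including 10 of the 12 protein-coding genes. GATAA was present in 4 of these 10 windows (P2rx1, Olfm5, Gpr141 and Fhit), against 22.58% of 32851 RefSeq promoter windows of the same length. TGTGGT was in 4 (14.05% of all windows), GAGGAA in 5 (23.25%) and CAGCTG in 3 (13% of all). A match is a stretch of letters and not a measured binding site, and no motif was present in all 10.

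P2rx1 (chromosome 11, 72999145 to 73015197, plus strand, mm10) stood at 11.3, 10.0 and 11.5 FPKM in the Bcl11b- DN2a libraries, replicates 1, 2 and 3. In Flt3+ ETP it was at 0.751 and 1.34 FPKM, in Flt3- ETP at 3.29 and 3.54 FPKM and in total ETP at 2.97 and 3.35 FPKM. In Bcl11b+ DN2a it was at 1.51, 1.47 and 2.79 FPKM. The 3 Bcl11b- DN2a libraries lay within a narrow range across both kits and above all 9 other libraries. The mean was 10.9 ± 0.776 FPKM (SD, n = 3) in Bcl11b- DN2a and 1.92 ± 0.756 FPKM (SD, n = 3) in Bcl11b+ DN2a. Ordered by level, Bcl11b- DN2a came first, Flt3- and total ETP followed with means of 3.42 ± 0.179 and 3.16 ± 0.269 FPKM (SD, n = 2 each) and ranges that overlapped, and Bcl11b+ DN2a and then Flt3+ ETP (1.05 ± 0.419 FPKM, SD, n = 2) were lowest, with ranges that did not overlap.

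Itga2b encodes integrin alpha IIb (CD41), known from platelets and early blood progenitors. It measured 24.02, 18.6 and 4.20 FPKM in Bcl11b- DN2a and 6.31, 5.17 and 2.58 FPKM in Bcl11b+ DN2a. In ETPs it lay between 0.145 and 4.66 FPKM. The SMART-Seq library was the lowest of each of these populations, so the Bcl11b- DN2a libraries stood apart from the others only within a kit. Adam11 had the same kit pattern, at 11.3 and 9.28 FPKM in the NEBNext libraries of Bcl11b- DN2a and 2.03 FPKM in the SMART-Seq library.

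Tbxas1 measured 7.48, 8.04 and 5.47 FPKM in Bcl11b- DN2a, 2.98, 3.23 and 2.79 FPKM in Bcl11b+ DN2a and 1.10 to 3.85 FPKM in ETPs. Col9a3 measured 4.91, 3.71 and 3.37 FPKM in Bcl11b- DN2a and at most 1.70 FPKM elsewhere. For both genes, as for P2rx1, each Bcl11b- DN2a library was above all 9 other libraries, and besides these only Mir7029 among the 19 members was separate in this way, on 4 to 10 reads. The rule had fixed part of this separation in advance, and the share of all genes separate in this way was not computed. Olfm5 was the most abundant of these genes per length of gene model, at 29.9, 36.4 and 53.9 FPKM in Bcl11b- DN2a. It measured 16.2, 20.6 and 34.1 FPKM in Bcl11b+ DN2a and, among ETPs, 3.96 and 7.76 FPKM in Flt3+ ETP and 12.1 and 17.5 FPKM in Flt3- ETP. Its highest library in each population that had both kits was the SMART-Seq one.

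**Figure D1:**
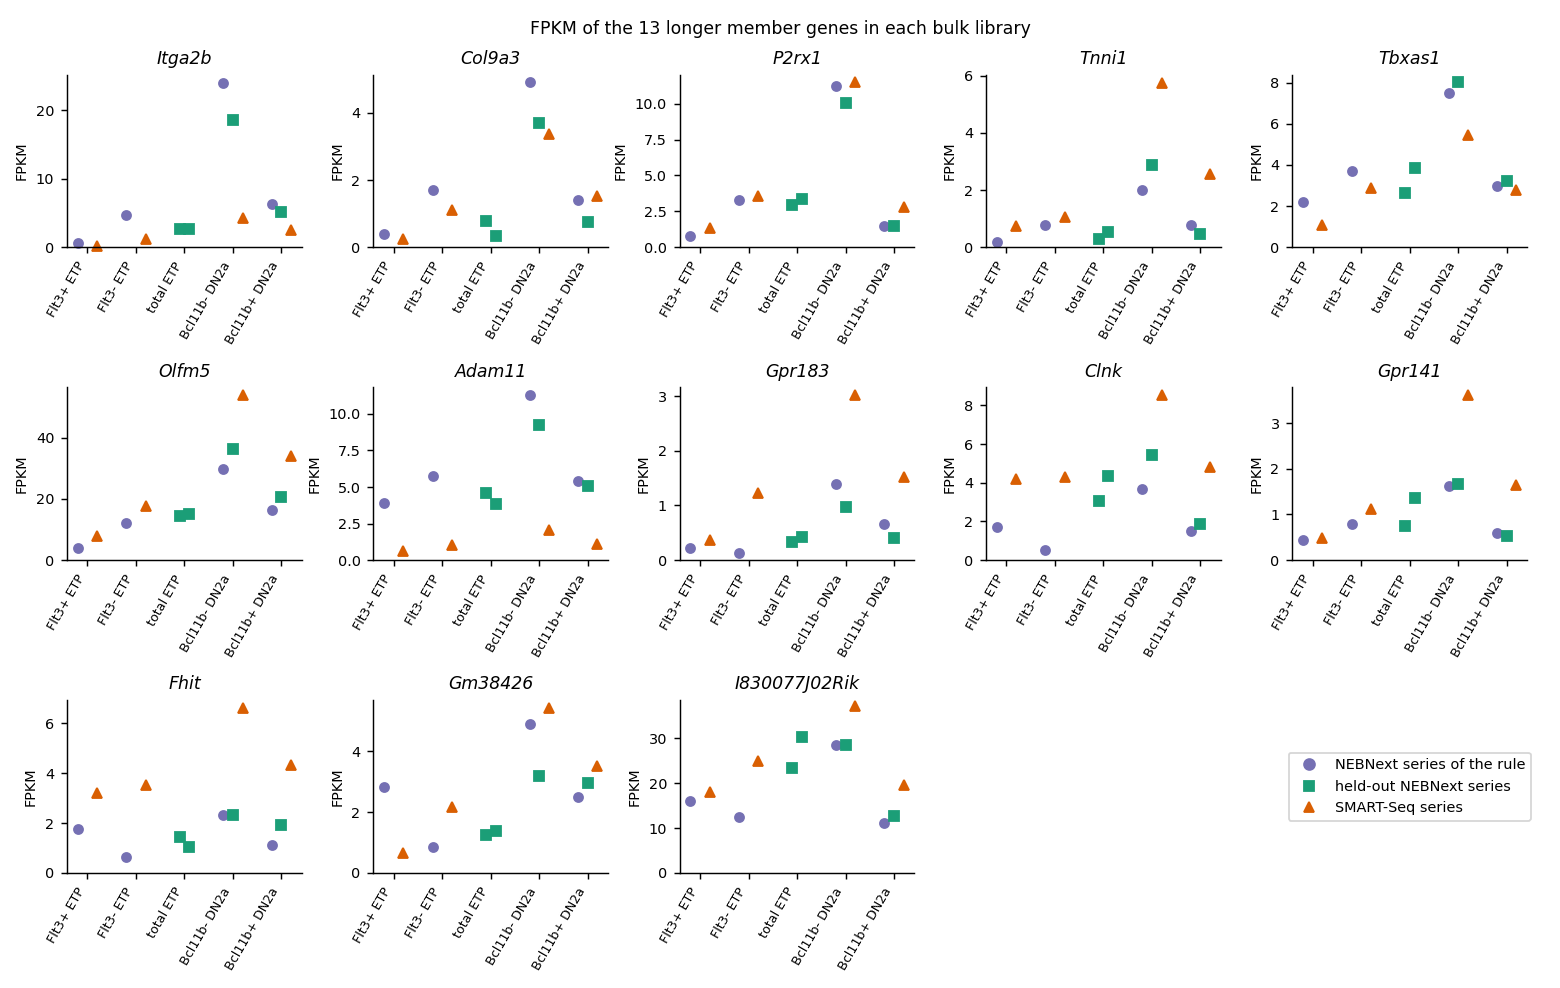
FPKM of the 13 longer members (vertical axes, each from 0) in the 12 bulk libraries, by sorted population, with symbols for the 3 library series. Within a series the Bcl11b- DN2a library is the higher of its DN2a pair for every gene drawn. The rule required this order in the series that it used, so only the series not used by the rule was free to differ. P2rx1 lies between 10.0 and 11.5 FPKM in Bcl11b- DN2a.

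The remaining longer genes were low or varied with the kit. Tnni1 measured 2.00, 2.86 and 5.77 FPKM in Bcl11b- DN2a and up to 2.55 FPKM in Bcl11b+ DN2a. Gpr183 measured 1.40, 0.972 and 3.02 FPKM, and Gpr141 1.62, 1.66 and 3.62 FPKM, in Bcl11b- DN2a. Their SMART-Seq libraries were the highest in that population, and the Bcl11b+ SMART-Seq library reached 1.52 and 1.65 FPKM. Clnk, at 3.69, 5.42 and 8.54 FPKM in Bcl11b- DN2a, and Fhit, at 2.31, 2.31 and 6.63 FPKM, overlapped with ETP libraries. I830077J02Rik was abundant in every population, at 28.5, 28.6 and 37.1 FPKM in Bcl11b- DN2a and 12.6 to 30.3 FPKM in ETPs. Genes just inside the margin of 0.5, by their smallest of the 4 differences on the log2(FPKM + 1) scale, were Gm38426 (0.51), Fhit (0.52), Snord37 (0.52), Gpr183 (0.53), Adam11 (0.53) and Itga2b (0.54). Just outside lay Trim55 (0.50, unrounded 0.4992), Snord33 (0.49), Gse1 (0.49), Mir1901 (0.48), Arhgap6 (0.47) and Pde4a (0.47).

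Several members share ground with other annotated genes, and the use of strand in counting is not given in the sources used here. Gm38426 lies within Dnase2a, on the same strand, and Dnase2a itself was at 17.3, 12.7 and 5.35 FPKM in Bcl11b- DN2a and 12.4, 9.28 and 5.22 FPKM in Bcl11b+ DN2a. Snord37 lies within Eef2, Snord68 within Rpl13, Mir7045 within Chd4 and Mir7029 within Gcn1l1, so reads of these small RNA genes and of their host transcripts cannot be told apart here. Gpr183 lies on the opposite strand within Ubac2, which was at 16.01 to 37.3 FPKM in the 12 libraries, and Tbxas1 overlaps the antisense gene Gm42962. Col9a3 meets the end of Tcfl5 on the opposite strand, and Tcfl5 was at most 0.53 FPKM in any library.

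The third library series was not used to choose the genes. It consists of 1 Bcl11b- DN2a library, 1 Bcl11b+ DN2a library and both total ETP libraries, all NEBNext, so it allows counts beside the background of all genes and no test. Of the 19 members, 8 were again at least 0.5 above all 3 comparison libraries, whereas 0.925% of the 12112 genes above 1 FPKM were. By any margin, 15 members were above all 3, against 28.4% of genes. At least 0.5 above Bcl11b+ DN2a were 13 members (5.94% of genes), and at least 0.5 above both total ETP libraries were 9 (6.42% of genes). The median of the smallest difference was 0.38 over the members and -0.14 over all 12112 genes. The name of the group, genes transiently high in Bcl11b- DN2a, thus held for 8 of 19 genes at a margin of 0.5. Here the earlier stage was total ETP in place of Flt3- ETP.

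Of the 13 longer genes 7 passed the margin and 12 were above all 3 libraries by any amount, while of the 6 small RNA genes 1 passed and 3 were above. By smallest difference, Itga2b (1.66), Col9a3 (1.40), P2rx1 (1.34) and Tnni1 (1.34) ranked 2, 3, 4 and 5 among 12112 genes. Tbxas1 (0.90), Olfm5 (0.79), Snord37 (0.77, from 7 reads) and Adam11 (0.76) completed the 8. The 5 members with the smallest margins among the longer genes were Clnk (0.26), Gpr141 (0.17), Fhit (0.17), Gm38426 (0.07) and I830077J02Rik (-0.08). I830077J02Rik was 1.11 above Bcl11b+ DN2a, but total ETP replicate 2, at 30.3 FPKM, was above the Bcl11b- DN2a library. Snord68 (-0.12), Snord89 (-0.58) and Mir1839 (-1.27) were not above all 3 libraries either.

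**Figure D2:**
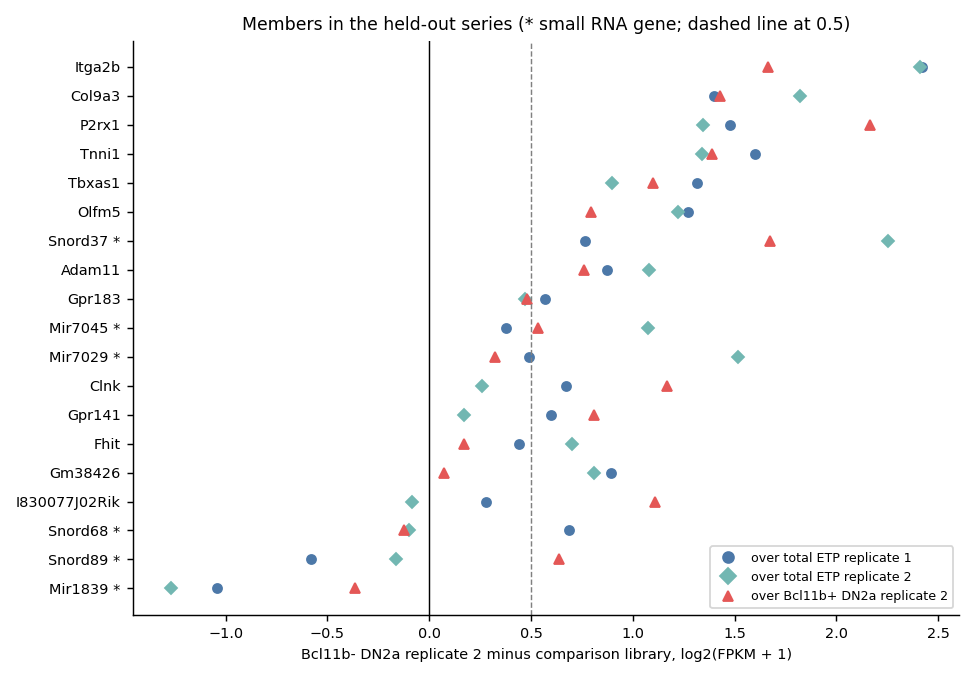
Differences on the log2(FPKM + 1) scale between the Bcl11b- DN2a library of the series not used by the rule and each of its 3 comparison libraries, for the 19 members. All 3 symbols lie right of the dashed line at 0.5 for 8 members, from Itga2b to Adam11, and Mir1839 lies left of 0 in all 3.

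The gates and other cell types were checked once. Il2ra, encoding CD25, was at 1.02 to 18.4 FPKM in ETPs and 183.6 to 300.8 FPKM in DN2a. Bcl11b was at 6.11, 3.08 and 0.596 FPKM in Bcl11b- DN2a and 41.02, 44.3 and 16.1 FPKM in Bcl11b+ DN2a. Itga2b and P2rx1 are also known from megakaryocytes and platelets. The other 11 genes of a megakaryocyte list summed to 3.45 to 5.21 FPKM in Bcl11b- DN2a, 3.78 to 7.43 FPKM in ETPs and 1.64 to 4.0 FPKM in Bcl11b+ DN2a, and 7 of the 11 were under 1 FPKM in every library. A mast cell list summed to 103.9, 133.97 and 504.7 FPKM in Bcl11b- DN2a and to 177.4, 272.8 and 898.6 FPKM in Bcl11b+ DN2a. Most of this sum was Cpa3, at 98.7, 126.8 and 481.7 FPKM and at 176.3, 271.2 and 893.4 FPKM. Mcpt8 and Cyp11a1 of this list went the other way. Mcpt8 was at 1.95, 4.14 and 20.4 FPKM in Bcl11b- DN2a and 0.224, 0.248 and 3.99 FPKM in Bcl11b+ DN2a. Cyp11a1 was at 2.32, 1.60 and 1.23 FPKM and at 0.437, 0.73 and 0.634 FPKM. A granulocyte list summed to 162.3 to 229.1 FPKM in Bcl11b- DN2a, 237.1 to 1764 FPKM in ETPs and 23.1 to 70.9 FPKM in Bcl11b+ DN2a. The part of these cell types in the members' levels was not tested in bulk RNA. Recovered reads on gene models ranged from 21207017 to 38537154 per library.

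Genes whose levels followed P2rx1 most closely over the 12 libraries were ranked by Pearson's r on the log2(FPKM + 1) scale, as a description over libraries that share kits and series. The 5 closest were Sh2d1b2 (0.92), Dhrs3 (0.91), Trim55 (0.91), Ttc39c (0.87) and Scarletltr (0.87). Sh2d1b2, encoding a signalling adaptor, was at 1.54, 1.56 and 1.38 FPKM in Bcl11b- DN2a and at most 0.935 FPKM elsewhere. Dhrs3, encoding a retinal reductase, was at 13.1, 9.32 and 10.9 FPKM in Bcl11b- DN2a and 6.03, 4.15 and 5.23 FPKM in Bcl11b+ DN2a. Among the members, Col9a3, Tbxas1 and Gpr141 were closest to P2rx1, with r of 0.87, 0.87 and 0.86, and Adam11 (0.34) and Fhit (0.37) were the least close of the longer genes. The rule had used part of these libraries to choose P2rx1 and the other members, so their r was partly fixed in advance.

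In the 10x libraries, cells were divided by transcripts into those with neither Il2ra nor Bcl11b, those with Il2ra only (CD25-only cells) and those with both. These classes stand for sorted stages only roughly, since a cell can hold a transcript that was not sampled. Libraries 1 and 2 held 43734920 and 55522900 UMIs, the tags that mark single RNA molecules. After filtering, 2078 and 3919 cells had neither transcript, 1450 and 2088 were CD25-only and 1197 and 1933 had both, with median depths of 8194 and 5738, 8513.5 and 6568.5, and 9002 and 6771 UMIs. The libraries shared 57 cell barcodes. The gene table held 12 of the 19 members, the protein-coding ones. Counts were summed per class and library and tested with edgeR's quasi-likelihood test, with the library as a term, on 11702 genes.

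Of the 3 classes, CD25-only cells had the highest CPM (UMIs of a gene scaled to a fixed total per class) for all 12 members in both libraries, as for 11.1% of genes. In the cells with Bcl11b only, Fhit was higher still, at 5.85 and 5.66 CPM against 5.41 and 5.39 CPM in CD25-only cells. Those values rest on 7 and 15 UMIs. Gpr183 was higher there in library 1 only, at 4.18 against 3.43 CPM, on 5 UMIs. Called at an adjusted p under 0.05, 10 of 12 were higher than in cells with neither transcript (12.4% of genes) and 9 of 12 higher than in cells with both (13.8% of genes). Higher than both neighbouring classes were 8 of 12, against 1.35% of genes, and no member was called lower in either comparison, as 14.5% and 13% of genes were. The median difference of the members was 0.82 against cells with neither and 0.80 against cells with both, beside medians near 0 over all genes (-0.003 and 0.004). The 8 were Olfm5, I830077J02Rik, Col9a3, P2rx1, Tnni1, Itga2b, Tbxas1 and Gpr141. The count depended on the fit: without the library as a term it was 5, losing Gpr141, I830077J02Rik and Tnni1, and with DESeq2 it was also 5, losing Gpr141, Itga2b and Tbxas1.

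P2rx1 in library 1 went from 4.99 CPM in cells with neither transcript (90 UMIs) to 10.2 CPM in CD25-only cells (exact 95% Poisson interval 8.55 to 12.1) and 4.63 CPM in cells with both (51 UMIs). In library 2 the values were 5.66, 10.2 (8.58 to 11.9) and 5.04 CPM. The intervals cover counting error only. CD25-only cells were thus higher in both libraries, by 0.87 ± 0.14 over cells with neither (SE, derived from edgeR's F statistic; adjusted p = 4.6e-07) and by 1.10 ± 0.16 over cells with both (adjusted p = 3.37e-08), on the log2 scale. Itga2b measured 4.38, 13.3 and 9.09 CPM in library 1 and 3.39, 13.96 and 8.80 CPM in library 2. Its rise over cells with neither, 1.78 ± 0.14, was the largest of the 12 and its difference to cells with both, 0.64 ± 0.13, was smaller (edgeR adjusted p = 1.06e-18 and 5.3e-05).

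Col9a3 and Tnni1 were called higher on both sides. Col9a3 measured 2.77, 6.93 and 2.999 CPM in library 1 and 3.64, 9.54 and 4.59 CPM in library 2, with differences of 1.31 ± 0.17 and 1.14 ± 0.18. Tnni1 measured 2.39, 6.33 and 3.54 CPM in library 1 and 1.36, 5.04 and 1.96 CPM in library 2, with differences of 1.56 ± 0.21 and 1.10 ± 0.22. The most abundant members by CPM, Olfm5 and I830077J02Rik, differed less from cells with neither transcript. Olfm5 measured 31.3, 55.7 and 33.3 CPM in library 1, with differences of 0.65 ± 0.06 and 0.87 ± 0.07. I830077J02Rik measured 30.7, 47.6 and 26.5 CPM in library 1, with differences of 0.47 ± 0.06 and 0.90 ± 0.07.

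The 4 members outside this count fell short on different sides. Gpr183 was 1.45 ± 0.26 higher than in cells with neither transcript and 0.40 ± 0.25 above cells with both (edgeR adjusted p = 8.17e-06 and 0.259). Adam11 was 0.94 ± 0.17 and 0.40 ± 0.17 above them (adjusted p = 5.69e-06 and 0.0784). Clnk was called only against cells with both, at 0.56 ± 0.22 (adjusted p = 0.0465), and stood 0.17 ± 0.18 above cells with neither (adjusted p = 0.569). The call of Clnk was lost in 6 of 9 alternatives, whose adjusted p ranged from 0.0364 to 0.5, among them DESeq2 (0.473) and the fit without the library as a term (0.247). Fhit passed in neither comparison, at 0.34 ± 0.18 and 0.13 ± 0.19 (adjusted p = 0.147 and 0.679). These p-values do not show that the levels were equal.

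**Figure D3:**
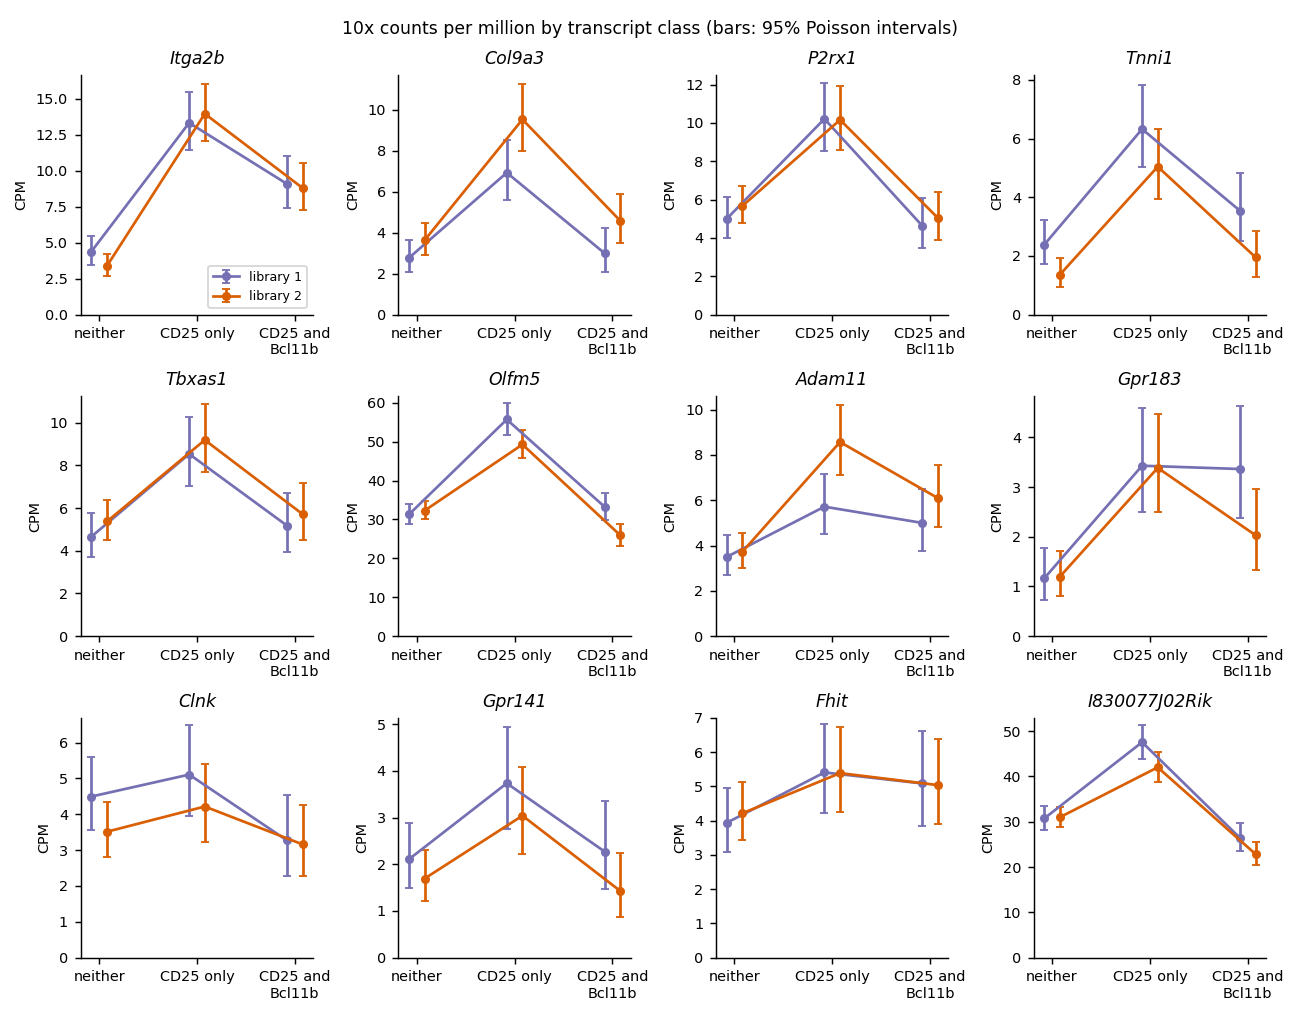
CPM of the 12 members (vertical axes, each from 0) in the 3 transcript classes of both 10x libraries, with exact 95% Poisson intervals as bars. CD25-only cells are the highest point for all 12 members in both libraries. For Clnk, Fhit and Gpr141 the bars of CD25-only cells overlap with those of both other classes. For Gpr183 and Adam11 they overlap with those of cells with both transcripts.

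**Figure D4:**
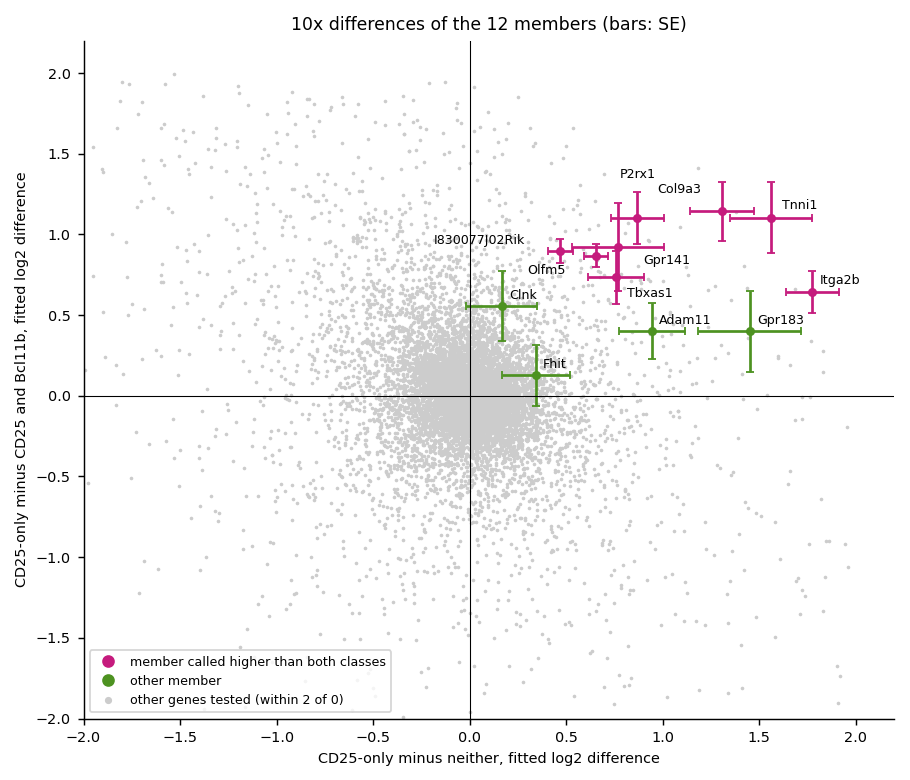
Fitted log2 differences of CD25-only cells over cells with neither transcript (horizontal axis) and over cells with both (vertical axis), with SE bars for the 12 members and grey points for other genes within 2 of 0 on both axes. The 8 members called higher than both classes lie to the upper right, and Fhit lies nearest to 0, at 0.34 and 0.13.

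Finer groups of cells showed a gradual course. With Flt3 transcripts and neither Il2ra nor Bcl11b, the summed level of the 12 members was 57.2 and 60.9 CPM in libraries 1 and 2, and in such cells without Flt3 it was 109.4 and 105.2 CPM. With 1 Il2ra UMI it was 152.4 and 155.7 CPM, with 2 to 3 it was 167.8 and 173.1 CPM and with 4 or more 194.2 and 162.4 CPM. With 1 Bcl11b UMI besides Il2ra the sum was 143.6 and 108.3 CPM, with 2 to 3 it was 112.4 and 99.1 CPM and with 4 or more 76.9 and 70.7 CPM. In both libraries the sum was already higher in cells without Flt3 before Il2ra was seen, and it was lower with each step of Bcl11b. Without Olfm5 and I830077J02Rik, which give most of it, the other 10 members summed to 18.1 and 18.4 CPM in the Flt3 group, 67.5 and 79.3 CPM with 2 to 3 Il2ra UMIs and 33.5 and 29.3 CPM with 4 or more Bcl11b UMIs.

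P2rx1 alone went from 1.79 and 2.46 CPM in the Flt3 group to 11.3 and 11.8 CPM with 2 to 3 Il2ra UMIs, and to 3.39 and 3.31 CPM with 4 or more Bcl11b UMIs. Itga2b peaked in different groups of the libraries, at 20.03 CPM with 4 or more Il2ra UMIs in library 1 and at 15.9 CPM with 2 to 3 in library 2. These groups were made from UMI numbers and so also differ in depth per cell, and no test was made between them. CD25-only cells were also divided by whether they held a P2rx1 UMI. Itga2b was at 12.6 CPM in cells with one and 13.4 CPM in the other CD25-only cells of library 1, and at 8.91 and 14.3 CPM in library 2, on 14 and 9 UMIs in the P2rx1 cells. Tbxas1 was at 12.6 and 8.16 CPM in library 1 and 8.91 and 9.21 CPM in library 2. Itga2b, Olfm5 and I830077J02Rik were lower in the P2rx1 cells of both libraries, and Tnni1 and Adam11 were higher in both. The other members, Tbxas1 among them, differed in direction between the libraries. Most of these values rest on few UMIs, and none of the differences was tested.

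**Figure D5:**
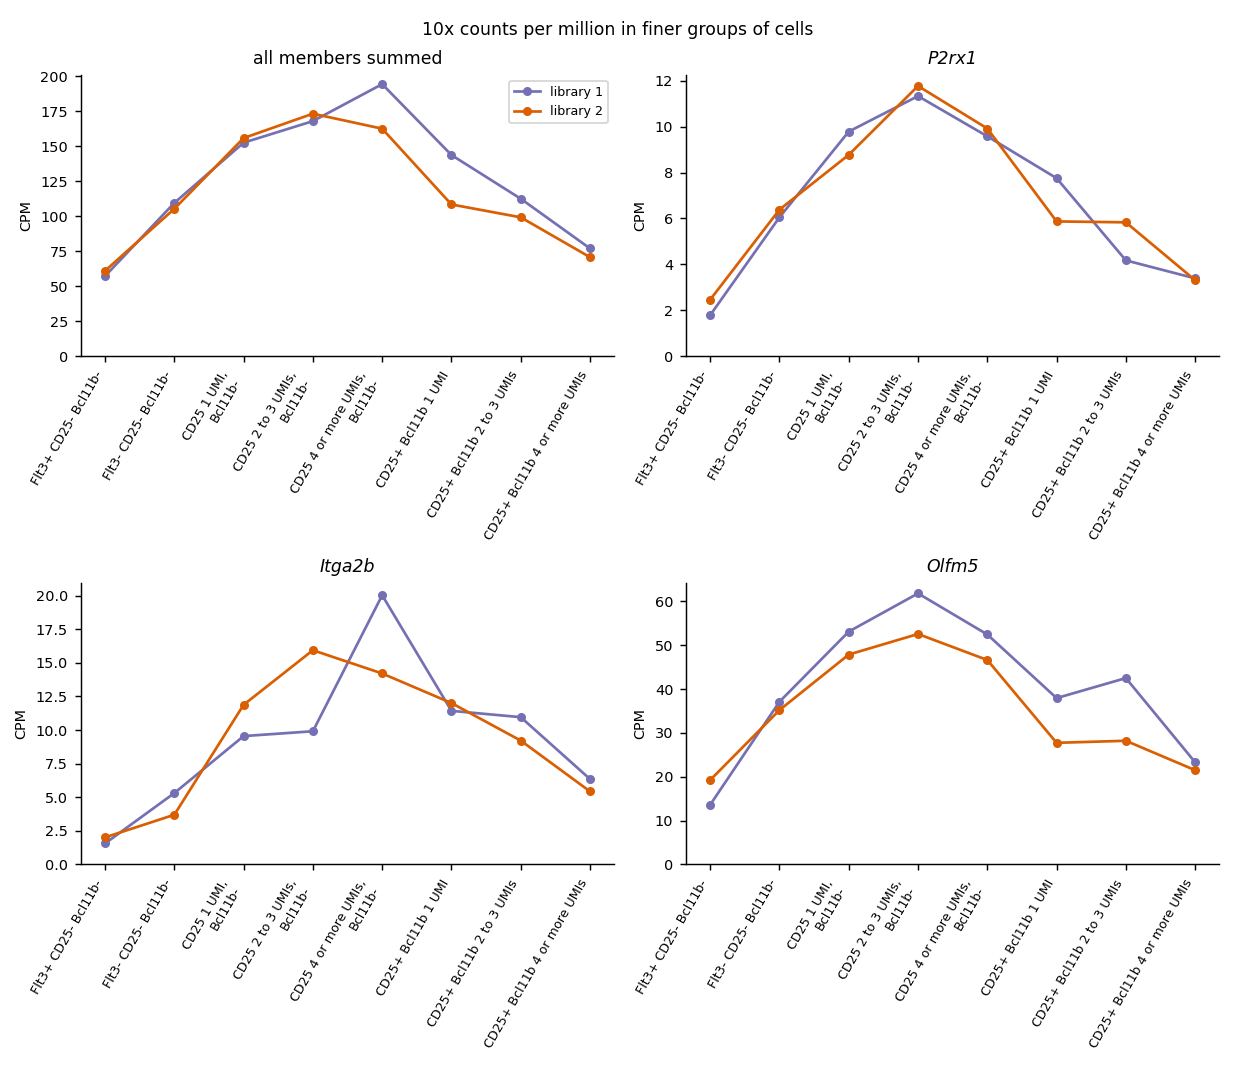
CPM of the 12 members summed and of P2rx1, Itga2b and Olfm5 (vertical axes, each from 0) in 8 groups of 10x cells ordered from Flt3+ cells without CD25 transcripts to cells with 4 or more Bcl11b UMIs. The summed level is lowest at the Flt3+ end (57.2 and 60.9 CPM) and highest among CD25-only cells in both libraries.

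Megakaryocyte transcripts were measured in the same 10x classes. Pf4, which marks megakaryocytes, had 2 and 0 UMIs in CD25-only cells and cells with both in library 1, where most of its UMIs lay in cells with neither transcript, and 7, 0 and 0 UMIs in the 3 classes of library 2. Of the 4 genes of this list that could be tested, Itga2b was the only one called higher in CD25-only cells than in both other classes, and Gp9 (-0.51 ± 0.19) was lower than in cells with neither. After removal of all cells with a UMI of a megakaryocyte gene other than Itga2b, the same 8 members were called. They were also called after removal of cells with a UMI of Elane, S100a8, S100a9, Ngp, Camp, Ltf, Fcnb or Ms4a3. This took out 27 and 32 CD25-only cells in libraries 1 and 2. Cells were not removed for Mpo, Prtn3, Ctsg or Lyz2 transcripts. The whole granulocyte list, which includes Mpo, Prtn3, Ctsg and Lyz2, summed to 450.7 and 417.5 CPM in cells with neither transcript. It summed to 245.1 and 183.5 CPM in CD25-only cells and 60.98 and 65.4 CPM in cells with both.

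Other receptors and enzymes of extracellular nucleotides were measured beside P2rx1. In this list of 21 genes, 12 could be tested in the 10x data, where 12.4% of all genes were higher and 14.5% lower than in cells with neither transcript, and 13.8% higher and 13% lower than in cells with both. Against cells with neither transcript, 2 were higher in CD25-only cells (P2rx1 and the adenosine receptor gene Adora2a) and 6 were lower, among them P2ry14 (-0.51 ± 0.07), P2rx7 (-1.30 ± 0.38) and Entpd1 (-1.60 ± 0.34), which encodes the ATP-degrading enzyme CD39. Against cells with both, 3 were higher, namely P2rx1, P2ry14 (0.75 ± 0.09) and P2ry2 (1.85 ± 0.36), and Adora2a (-1.22 ± 0.12) and P2ry10 (-1.15 ± 0.11) were lower. P2rx1 was the only one of the 12 called higher than both classes. In bulk RNA, too, P2rx1 was the only one of the 21 at least 0.5 above all 3 comparison libraries of the series not used by the rule. The closely related channel gene P2rx4 stayed between 4.39 and 7.79 FPKM in all 12 libraries. The list was drawn up with the pattern of P2rx1 known.

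Single cells on the C1 chip gave a coarser view. Among cells with at least 1000 genes above 1 FPKM, the same transcripts put 98 in the class with neither, 94 in the CD25-only class and 29 in the class with both. The cells form 1 sample, so the shares carry exact binomial 95% intervals for counting error only and no test. P2rx1 was above 1 FPKM in 24 of 94 CD25-only cells (25.5%, 17.1% to 35.6%), in 14 of 98 cells with neither (14.3%, 8.04% to 22.8%) and in 1 of 29 cells with both (3.45%, 0.0873% to 17.8%). Itga2b was in 24 CD25-only cells (25.5%), 2 cells with neither (2.04%) and 5 cells with both (17.2%, 5.85% to 35.8%), the last overlapping with the CD25-only share. Tbxas1 had its highest share in cells with both, at 37.9% (20.7% to 57.7%) against 24.5% (16.2% to 34.4%) of CD25-only cells, with overlapping intervals. Of the 17 members in that table, 9 had their highest share in CD25-only cells, as 10.1% of its 43346 genes did. Those genes were not filtered on level, and many were seen in few cells. Genes above 1 FPKM in no cell, such as Snord37, count in that background and lower its percentage.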

How the data were processed

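The bulk values are FPKM that the authors deposited; per the file headers they are reads on exons of RefSeq gene models per kilobase, computed with HOMER. STAR 2.4.0, RSEM 1.2.25, HOMER and edgeR 3.6.8 on mm10 are named in the submitters' processing notes for bulk RNA, and STAR, SAMtools and RSEM for the C1 cells, whose deposited values are also FPKM. For 10x, the deposited values are UMI counts per gene and cell, from Cell Ranger 2.0 per the submitters' processing notes.

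The members, gene lists and comparisons were chosen with earlier results of these data known. Members were found on log2(FPKM + 1) without a filter; a pseudocount of 1 understates changes of low genes. The background used genes above 1 FPKM in at least 2 of 12 libraries. Reads per gene model were recovered from FPKM and the listed lengths, with a total per library chosen to make low values whole. Of the low values checked, 1845 to 2945 per library, 100% came out whole within 0.1 read. No count test was run on the recovered reads, since the rule had used the contrasts and the remaining series has 1 library per DN2a population.

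A 10x cell needed 1000 genes or more and a mitochondrial share below 10% (4878 of 5006 and 8434 of 8867 barcodes stayed); no doublet caller was run. Classes were set by at least 1 UMI of Il2ra and Bcl11b, and both genes were left out of the counts of calls. Cells with Bcl11b only were not used in the fit. Counts summed per class and library were tested with edgeR 4.0.16 in R 4.3.3 (TMM, filterByExpr, quasi-likelihood test, library as a block because the classes come from the same libraries; deviations of classes of a library correlated by 0.358 to 0.425 across genes), with Benjamini-Hochberg adjustment over 11702 genes and a threshold of 0.05. On simulated data for CD25-only cells against cells with neither transcript (11704 genes, 200 changed), 72% of log2 changes of 0.5 and 91% of changes of 1 were recovered, and 7.1% and 4.2% of calls were false. Alternatives were DESeq2 1.42.0, other filters, margins, pseudocounts, classes and cells left out. Named genes were P2rx1, up to 15 members, without small RNA genes and unnamed predicted genes, with the largest margins in the series not used by the rule and the 5 with the smallest, members called in 10x, 6 genes on either side of the margin, gate genes and the 5 genes closest to P2rx1.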

Additional observations from a re-analysis of the deposited data

How the results depend on the processing

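Of 42 alternative values, 33 stayed within 1.5 times the reported count. The number of members found by the rule depended on its settings: it was 98 with a pseudocount of 0.1 and 2 (P2rx1 and Mir7045) with a margin of 1, and 58 to 299 when only 1 of the 2 library series had to meet the margins. In the series not used by the rule, 4 members passed with a margin of 1 and 15 with a margin of 0, and leaving out either total ETP library gave 9 and 10 in place of 8. In the 10x data, DESeq2 called 5 members higher than in cells with both transcripts and 5 higher than both classes, and without the replicate block 5 were higher than both classes. Of all genes, 1.35% were higher than both classes, against 0.282% with DESeq2 and 0.145% without the replicate block; the cause was not tested. Cells thinned to 4000 UMIs gave 6 members, without Gpr141 and Tbxas1, and at least 2 Il2ra UMIs gave 7, without Gpr141. Leaving out the 5% of cells with the most UMIs, cells with megakaryocyte transcripts or cells with the granulocyte transcripts from Elane to Ms4a3 named above gave 8 each. These settings were chosen after seeing the data. With 1 library left out no test was possible, and of the 3 classes CD25-only cells were highest for 12 of 12 members in either library alone. No paired fit of the bulk libraries was made, since 2 of the 3 series of DN2a libraries had chosen the members. Depth limits the small RNA genes, with 0 to 31 reads, and the FPKM of genes under 1.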
